A study of Mus musculus with 39 samples.

Results

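Separated and intact mouse embryos at the 4-cell stage were compared in 7 of the 19 embryos of the series, which took up 16 of its 39 libraries. All embryos of the series were wild type (WT in the labels), and the labels name no drug or allele. The intact group held 4 embryos, numbered 1, 3, 4 and 5, each sequenced whole as 1 library. The separated group held 3 embryos of the same batch, numbered 2, 3 and 4, each taken apart into its 4 blastomeres. Each blastomere gave a library of its own, and the 4 libraries were summed so that an embryo was compared with an embryo. The compared embryos were chosen by their labels, not by their RNA. Libraries followed the Smart-seq2 protocol, in which poly(A) RNA of a lysed cell or embryo is copied to full-length cDNA and amplified by PCR. A separated embryo thus combines 4 lysis and amplification reactions and an intact embryo has 1, so the handling and the number of reactions cannot be told apart in any difference below. Nor can fewer cells with an RNA be told apart from less of it per cell in an embryo's total. A batch 2 embryo pair, numbered 6 and 7, was also separated at this stage. It had no intact counterpart in its batch and was not part of the contrast, so its levels are given beside the results as values. It did enter the fit of all 19 embryos, with batch as a term, and so shaped the filter, the scaling and the estimated spread. Its embryos had 103179707 and 86817580 counts, far more than any of the 7, so their raw counts are not comparable with the others. The labels do not say whether embryos came from separate litters, so p-values measure the spread between these embryos.

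At the 4-cell stage the mouse embryo has passed the major wave of genome activation, in which transcription from the embryo's own genome replaces RNA stored in the egg. Its cells, the blastomeres, are not yet compacted, and cadherin-based adhesion, polarity and Hippo signalling begin to sort inner from outer cells only later. Isolated blastomeres of this stage can go on dividing. The contrast asks which RNAs differ between embryos taken apart and embryos left whole. The time from separation to lysis is not given here, so a response to lost contact cannot be assumed.

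The embryos carried the RNA of their labelled stage. Foxa1, a forkhead transcription factor that is silent at the 2-cell stage, was at 31.9, 68.8, 55.3 and 65.9 CPM in intact embryos 1, 3, 4 and 5. CPM here stands for read counts scaled to an equal library total after TMM, a correction for differences in library composition; summed marker, Y-linked and Xist levels use plain totals. In separated embryos 2, 3 and 4 Foxa1 was at 41.3, 57.1 and 68.9 CPM. No Foxa1 count was found in the 2-cell embryos, intact or separated. The HMG-box factor Sox21, reported to differ between 4-cell blastomeres, ranged from 13.02 to 62.9 CPM in intact and from 10.9 to 38.6 CPM in separated embryos. Nr5a2, a nuclear receptor of genome activation, ranged from 156.5 to 336.7 CPM in intact and from 154.7 to 271.4 CPM in separated embryos, against 28.8 to 58.2 CPM in intact 2-cell embryos. Id3 and Mast3 had counts in all 7 embryos. In intact 4-cell embryos Mast3 was at 26.2, 27.9, 27.6 and 35.9 CPM, above every separated 4-cell embryo. Its log2 fold change, separated minus intact, was -1.25 (SE 1.08). Mast3 had none in intact 2-cell embryos but was at 0.534 to 11.7 CPM in separated 2-cell embryos. That range overlapped the 5.93, 12.8 and 18.3 CPM of separated 4-cell embryos, so Mast3 did not set the stages of separated embryos apart. Obox3, a homeobox gene of the 2-cell stage, was at or below 11.3 CPM in the 7 embryos and between 304.6 and 702.4 CPM in intact 2-cell embryos. Zscan4f, another gene of the 2-cell stage, was at or below 0.384 CPM in the 7 embryos and had a median of 37.9 CPM in intact 2-cell embryos.

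**Figure D1:**
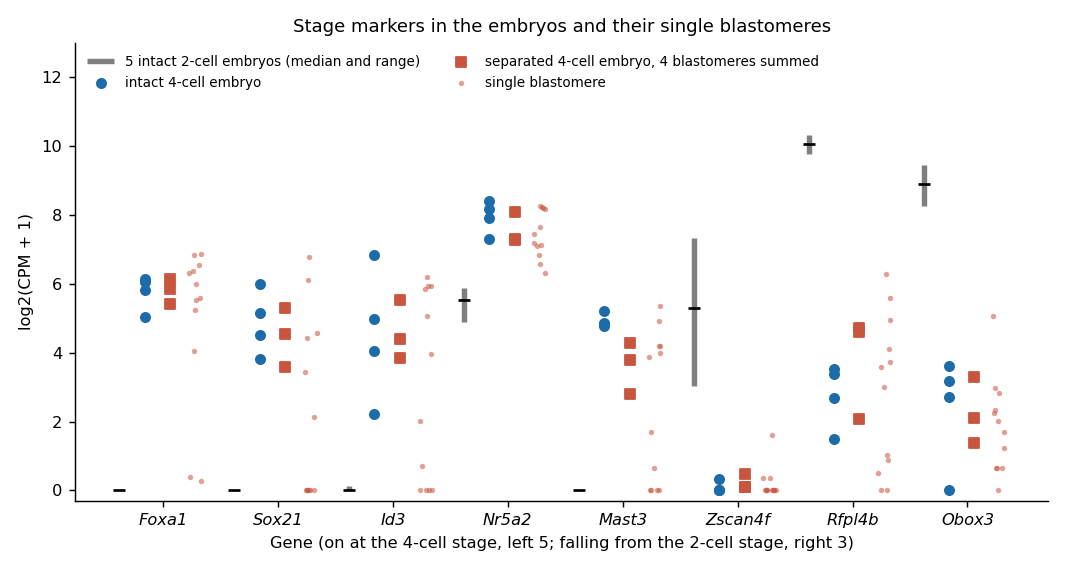
Level of 8 stage markers on a log2(CPM + 1) axis. Large points are the 4 intact and 3 separated 4-cell embryos, small points the 12 single blastomeres of the separated embryos, and grey bars the median and range of 5 intact 2-cell embryos. The left 5 genes had counts in every intact and separated embryo, while single blastomeres of one embryo spread from 0 upward for Sox21, Id3 and Mast3.

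Summing the sisters hid a wide spread between them. In separated embryo 2 all 305 counts of Sox21 came from blastomere 1. In separated embryo 3 blastomere 2 held 565 Sox21 counts, blastomere 1 held 38, and the other two held none. In embryo 4 the Sox21 counts of blastomeres 1 to 4 were 12, 49, 0 and 81. Foxa1 was more even but not in every embryo: blastomeres 1 and 2 of embryo 2 held 166 and 403 counts, and blastomeres 3 and 4 held 1 each. Nr5a2 was present in all 12 blastomeres, between 78.0 and 303.6 CPM of the library total. Among 4493 genes with a mean level from 10 to 100 CPM over the 7 embryos, 35.3% had a count in all 12 blastomeres, and in 13.2% of embryo values over 90% of the counts came from 1 sister. Among the 1323 genes from 100 to 1000 CPM these shares were 98.6% and 0.328%.

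The sequencing effort differed between the groups. Intact embryos had 2738253 to 4194087 counts and separated embryos, after summing, 13041687 to 15810965, a ratio of means of 4.10 (two-sided exact permutation p = 0.0571, adjusted over 6 library measures 0.171). With 3 against 4 embryos there are 35 arrangements, and 0.0571 is the smallest two-sided p they can give. Single blastomeres, at 2404476 to 5232479 counts, were sequenced about as deeply as a whole intact embryo. A count was found for 12136 ± 479 genes (SD, n = 4) in intact and 14016 ± 495 (SD, n = 3) in separated embryos (exact permutation p = 0.0571, adjusted 0.171). At an equal total of 2738253 counts the means were 11801 ± 246 (SD, n = 4) and 11456 ± 452 (SD, n = 3), and the groups overlapped (exact permutation p = 0.286, adjusted 0.429). A single blastomere showed 7939 to 9936 genes at its own total, fewer than any intact embryo.

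**Figure D2:**
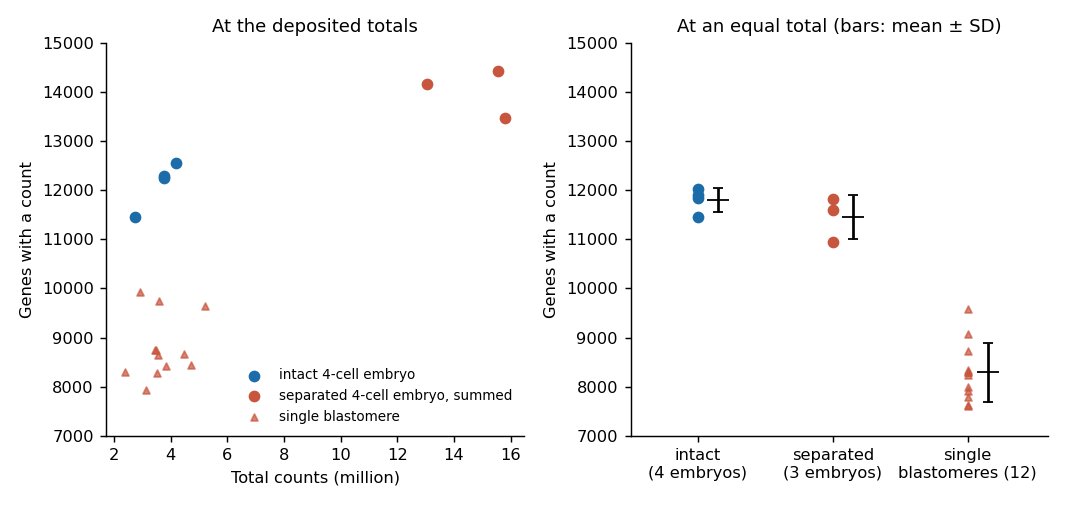
Genes with at least 1 count against the total count (left) and at an equal total (right: 2738253 counts for embryos, 2404476 for single blastomeres, with mean and SD). Separated embryos lie above the intact ones at the deposited totals and overlap them at an equal total, while the 12 single blastomeres lie below all whole embryos.

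RNA of mitochondrially encoded genes took 25.9% ± 6.09 of counts (SD, n = 4) in intact and 20.6% ± 1.80 (SD, n = 3) in separated embryos (exact permutation p = 0.286, adjusted 0.429). Its highest values, 30.04% and 31.6%, were those of intact embryos 3 and 4. Markers of cells that could come along with an embryo were scarce in every library. Of 21 cumulus and granulosa cell genes 15 had no count in the 7 embryos, and the list's summed level was 9.58 to 23.7 CPM in intact and 11.4 to 22.4 in separated embryos. Of 17 blood cell genes 12 had no count, and the summed level was 1.86 to 20.8 against 2.85 to 59.1. For 17 sperm cell genes, 11 without a count, it was 7.19 to 31.8 against 13.1 to 34.7. For 16 oviduct cell genes, 10 without a count, it was 23.9 to 71.9 against 19.6 to 70.0. Each of these ranges overlapped between the groups.

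Likeness was computed between whole embryos and between blastomeres. Over 5928 genes with a mean of at least 10 CPM, Pearson's r of log2(CPM + 1) had a median of 0.747 for 12 pairs of a separated with an intact embryo. The median was 0.760 for 6 intact pairs and 0.744 for 3 separated pairs. Sister blastomeres had a median r of 0.605, and blastomeres of different embryos 0.567. These correlations run across genes within pairs of libraries and share depth and composition, so they are given as descriptions.

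No gene passed the test between separated and intact embryos. Of 14119 genes tested with edgeR's quasi-likelihood test, 0 had an adjusted p under 0.05, a share of 0%. An unadjusted p under 0.05 was found for 844 genes, or 5.98%. Of these, 338 had a positive log2 fold change (separated minus intact), or 2.39% of all genes tested, and 506 a negative one, or 3.58%. In 578 genes (4.09%) all 3 separated embryos lay above all 4 intact ones, and in 296 (2.1%) all lay below. The median log2 fold change over all genes tested was 0.05, and 53.7% of them were above 0. DESeq2, a second count test run on the same genes, called 118 genes higher (0.836%) and 216 lower (1.53%) in separated embryos. Of its 334 calls, 99 had no count in any intact and 135 no count in any separated embryo, and 19 had a mean of at least 10 CPM. limma voom, another test, called 13 genes, all lower in separated embryos and none above 5.72 CPM on average.

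A gene missing the threshold was not shown to be equal in the groups, because most intervals were wide. The 95% interval of the fold change lay within 2-fold in both directions for 356 genes (2.52%). These included 72 of the 112 genes at 1000 CPM or more and 262 of the 1323 between 100 and 1000 CPM. Between 10 and 100 CPM they were 22 of 4493, and among the 5635 genes from 1 to 10 CPM and the 2556 below 1 CPM there were none. The median standard error of a log2 fold change fell with level, from 2.81 under 1 CPM to 1.09 between 10 and 100 CPM and 0.31 at 1000 CPM or more. Dppa3 (Stella), a maternal factor that protects the egg's DNA methylation, is a gene whose interval excluded a 2-fold difference. It was at 19970, 19400, 32400 and 22520 CPM in intact and 32910, 28150 and 26420 CPM in separated embryos, with a log2 fold change of 0.31 (SE 0.24, 95% interval -0.19 to 0.80).

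**Figure D3:**
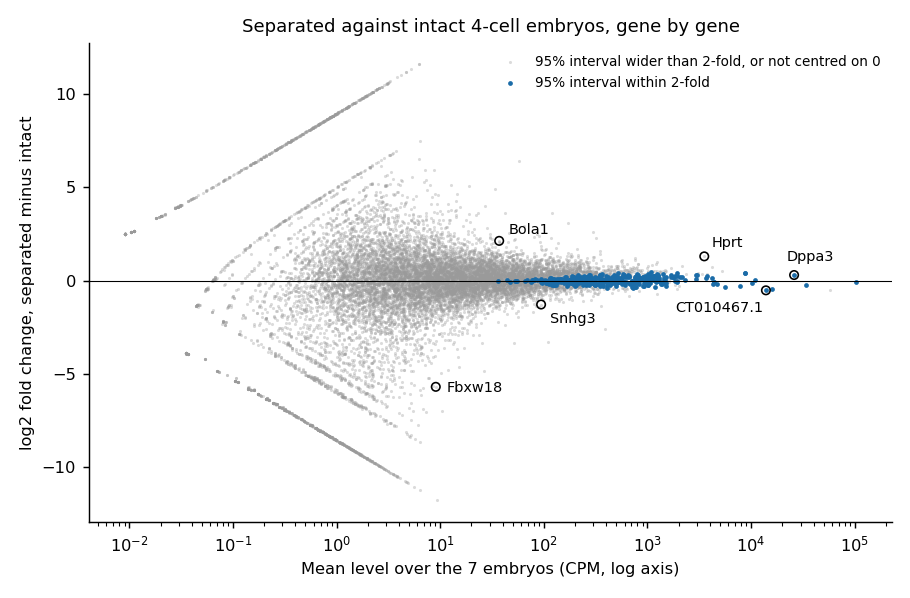
log2 fold change of separated minus intact embryos for each gene tested that had a count, against its mean level in CPM over the 7 embryos on a log axis. The 356 genes whose 95% interval lay within 2-fold are blue; the straight edges at the left are genes without a count in one of the groups, for which the fitted value is set by the prior count.

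Among RNAs inherited from the egg, 78 of 83 listed maternal oocyte transcripts were tested and none was called by edgeR. Their median log2 fold change was -0.08, beside 0.05 over all genes, with 4 members higher and 5 lower at an unadjusted p under 0.05 (11.5% in all, beside 5.98% of all genes). The lowest adjusted p of the whole comparison, 0.0551, belonged to Fbxw18, an oocyte F-box gene on chromosome 9 (109676734 to 109702700, GRCm38). Its counts were 119, 7, 44 and 75 in intact embryos 1, 3, 4 and 5, and 3, 7 and 3 in separated embryos 2, 3 and 4. That is 30.8, 2.604, 10.8 and 18.3 CPM against 0.217, 0.448 and 0.231 CPM, and the groups did not overlap. The log2 fold change was -5.68 (SE 0.90), and DESeq2 gave an adjusted p of 5.25e-10. Without intact embryo 3, the lowest intact value, edgeR's adjusted p was 0.00911; across the other alternatives in which a test was run it ranged from 5.25e-10 to 1. Both separated embryos of batch 2 had Fbxw18 counts, at 2.09 and 3.89 CPM. At the 2-cell stage Fbxw18 was at 31.2 to 118.4 CPM in intact and 64.5 to 226.6 CPM in separated embryos. Fbxw18 lies in a cluster of similar genes, so reads shared among its copies make its counts uncertain.

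Btg4, the adaptor that brings the deadenylase to maternal mRNA, was at 81.8, 92.3, 66.3 and 81.3 CPM in intact and 55.6, 35.4 and 38.4 CPM in separated embryos. All separated values lay below the intact ones, with a log2 fold change of -0.90 (SE 0.41) and an adjusted p of 0.801. Btg4 overlaps genes on the other strand, and the strandedness of the counts is not given in the sources used here. Parn, a poly(A)-specific ribonuclease, was at 0.259, 1.49, 0.978 and 5.86 CPM in intact and 38.3, 7.04 and 45.9 CPM in separated embryos. Its log2 fold change was 3.82 (SE 1.21), with an adjusted p of 0.801 in edgeR and 0.0206 in DESeq2. A single blastomere held 50.5%, 50.9% and 94.3% of the Parn counts in separated embryos 2, 3 and 4. The 53 tested genes of mRNA deadenylation and decay had a median of 0.32. At an unadjusted p under 0.05, 1 was higher and 1 lower (3.77% in all, beside 5.98% of all genes).

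Genes of the first wave of embryonic transcription, which peak at the 2-cell stage, had a median of -0.12 over 46 tested members. At an unadjusted p under 0.05, 1 was higher and 4 were lower (10.9% in all, beside 5.98% of all genes). The member of smallest p, Tcstv1, had 68, 6, 135 and 0 counts in intact and 6, 5 and 4 counts in separated embryos. Its levels were uneven within the intact group, and intact embryo 5 had none. Without a filter on low counts Tcstv1 was called at an adjusted p of 0.0133. Rfpl4b was at 1.81, 10.4, 5.38 and 9.52 CPM in intact and 23.4, 25.3 and 3.24 CPM in separated embryos. The separated value of Rfpl4b in embryo 4 lay inside the intact range.

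Nuclear genes of oxidative phosphorylation, the respiratory chain and ATP synthase had a median of 0.45 over 83 genes, the highest of the functional lists with at least 10 tested members, the later set of X-linked genes not counted. In 71 of the 83 (85.5%) the fold change was above 0, beside 53.7% of all genes, many of them at low levels. Of the 45 members with a mean of at least 100 CPM, 95.6% were above 0 with a median of 0.50, beside 66.9% and 0.20 for all 1435 genes at that level. There, 24.4% of the members had all separated embryos above all intact ones, beside 10.3% of the genes. At an unadjusted p under 0.05, 8 were higher (9.64%, beside 2.39% of all genes) and 0 lower (beside 3.58%). In 13 all separated embryos lay above all intact ones and in 2 all lay below, beside 4.09% and 2.1% of all genes. None had an adjusted p under 0.05. Ndufb6, a subunit of complex I, was at 195.3, 212.4, 229.8 and 158.7 CPM in intact and 627.6, 346.1 and 324.7 CPM in separated embryos, a log2 fold change of 1.12 (SE 0.35). Sdhb, the iron-sulfur subunit of complex II, was at 11.7 to 22.01 CPM in intact and at 170.9, 121.8 and 89.3 CPM in separated embryos, a log2 fold change of 2.94 (SE 1.2). Uqcr10 of complex III was at 686.3 to 1076 CPM in intact and 2028, 1253 and 1172 CPM in separated embryos, a log2 fold change of 0.85 (SE 0.40). Cox5a of complex IV was at 745.1 to 826.9 CPM in intact and 1825, 1238 and 947.8 CPM in separated embryos, a log2 fold change of 0.78 (SE 0.30). For these 4 subunits every separated embryo lay above every intact one, and separated embryo 2 had the highest value in each. By embryo the list's medians overlapped, since intact embryo 1 was higher than separated embryo 3. In batch 2 the median log2(CPM + 1) was 5.78 and 5.89, below the 6.54 to 7.06 of the intact embryos and the 6.95 to 7.38 of the separated embryos of batch 1.

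Genes encoded by mitochondrial DNA supply other subunits of the respiratory chain and ATP synthase, but none of complex II. All 14 tested had a log2 fold change below 0, with a median of -0.31. For 8 of the 14 the interval lay within 2-fold, and none had an unadjusted p under 0.05. mt-Cytb, the cytochrome b of complex III, was at 59320, 72000, 92130 and 37560 CPM in intact and 49690, 47300 and 41390 CPM in separated embryos. The separated values lay inside the intact range, and the log2 fold change was -0.50 (SE 0.26). Without a filter on low counts mt-Cytb was called at an adjusted p of 4.42e-10 with a log2 fold change of -0.48. Mitochondrial genes are transcribed as long shared precursors, so their values are not independent.

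Genes of protein synthesis and turnover are abundant at this stage. The 85 cytosolic ribosomal proteins had a median of 0.11, and for 45 of them the interval lay within 2-fold. None was higher or lower at an unadjusted p under 0.05. Rpl41, the member of smallest p, was at 7802, 6286, 8494 and 7765 CPM in intact and 9613, 7765 and 12970 CPM in separated embryos, a log2 fold change of 0.41 (SE 0.21). Of 103 ribosome biogenesis factors, Riok1, a kinase of small-subunit maturation, had the smallest p. It was at 22.7 to 47.1 CPM in intact and 8.54, 12.7 and 13.3 CPM in separated embryos, a log2 fold change of -1.58 (SE 0.67). The 45 proteasome genes had a median of 0.33. Their member Psmb2, a catalytic-core subunit, was at 354.9 to 532.5 CPM in intact and 708.4 to 786.8 CPM in separated embryos, a log2 fold change of 0.78 (SE 0.32). The adjusted p of Riok1 and of Psmb2 was 0.801 in edgeR. In batch 2 Psmb2, at 247.8 and 280.7 CPM, lay below the intact range, and Riok1, at 45.6 and 24.7 CPM, lay within it.

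Separation removes contact between blastomeres, so genes of contact, polarity and the signals that read them were examined by name. None of the 35 tested cell junction and adhesion genes had an unadjusted p under 0.05, and their median was 0.02. Cdh1 (E-cadherin) was at 12.7, 0.744, 14.4 and 14.7 CPM in intact and 3.55, 10.4 and 5.94 CPM in separated embryos. Ctnnb1 (beta-catenin), its cytoplasmic partner, was at 57.6 to 82.9 CPM in intact and 46.2, 79.9 and 56.2 CPM in separated embryos. Both overlapped between the groups. In embryo 3 the Ctnnb1 counts of blastomeres 1 to 4 were 0, 1201, 46 and 2. The 31 polarity and cortex genes had a median of 0.06. At an unadjusted p under 0.05, 0 were higher and 2 lower (6.45% in all, beside 5.98% of all genes). Slc9a3r1, a scaffold that links membrane proteins to ezrin, had the smallest p, with 8, 13, 32 and 0 counts in intact and 0, 1 and 0 counts in separated embryos. The 41 actin and myosin genes had a median of 0.03. Capzb, which caps actin filaments, had 0, 0, 17 and 28 counts in intact and 1, 0 and 0 counts in separated embryos.

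Hippo and YAP genes had a median of 0.01 over 33 members. At an unadjusted p under 0.05, 1 was higher and 1 lower (6.06% in all, beside 5.98% of all genes). Wwc2, a KIBRA family protein that promotes Hippo signalling, was at 93.0, 44.3, 47.0 and 67.9 CPM in intact and 30.3, 16.1 and 8.56 CPM in separated embryos. The groups did not overlap, and the log2 fold change was -1.78 (SE 0.53), with an adjusted p of 0.801 in edgeR and 0.0135 in DESeq2. The batch 2 embryos had Wwc2 at 123.1 CPM, above the intact range, and at 73.5 CPM, within it. Yap1, the coactivator that Hippo signalling keeps out of the nucleus, was at 34.2 to 59.3 CPM in intact and 24.3, 46.4 and 44.2 CPM in separated embryos. Its DNA-binding partner Tead4 was at 8.56 to 38.7 CPM in intact and 33.1, 49.1 and 34.6 CPM in separated embryos. In the Notch pathway, a signal between touching cells, the ligand Jag1 was at 0.489 to 4.66 CPM in intact and 11.7, 11.1 and 16.7 CPM in separated embryos, a log2 fold change of 2.25 (SE 0.89). The Notch inhibitor gene Numbl had the smallest p of that list, with 1 count in the intact embryos together and 11, 75 and 3 counts in separated embryos. The 20 Notch pathway genes tested had a median of -0.35. At an unadjusted p under 0.05, 2 were higher and 1 lower (15% in all, beside 5.98% of all genes). All separated embryos lay above all intact ones in 3 members and below in 2, beside 4.09% and 2.1% of all genes.

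Genes of FGF, WNT, BMP and other growth factor signals, 43 tested, had a median of 0.33, with 4 higher and 3 lower at an unadjusted p under 0.05 (16.3% in all, beside 5.98% of all genes). Spry4 and Spry2, feedback inhibitors of receptor tyrosine kinase signalling, stood on opposite sides. Spry4 was at 19.4, 1.12, 0.734 and 31.3 CPM in intact and 0.0724, 1.86 and 0.0771 CPM in separated embryos, a log2 fold change of -4.28 (SE 1.25). The Spry4 values overlapped, since intact embryos 3 and 4 were also low. Spry2 was at 32.6, 6.32, 61.6 and 50.8 CPM in intact and 283.8, 63.3 and 141.5 CPM in separated embryos, a log2 fold change of 2.10 (SE 0.80). DESeq2 called Spry4 (adjusted p 0.00131) and did not call Spry2 (0.232). In batch 2 both genes lay within the intact range, Spry4 at 20.2 and 6.76 CPM and Spry2 at 16.4 and 32.4 CPM.

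Lineage and pluripotency regulators had a median of -0.34 over 36 genes. At an unadjusted p under 0.05, 1 was higher and 2 lower (8.33% in all, beside 5.98% of all genes). Klf5, a Krüppel-like factor needed for early lineage development, was at 87.3 to 123.9 CPM in intact and 354.4, 216.6 and 293.6 CPM in separated embryos. Every separated value of Klf5 lay above the intact ones, with a log2 fold change of 1.44 (SE 0.50) and an adjusted p of 0.801 in edgeR. In batch 2 Klf5, at 126.2 and 282.9 CPM, also lay above the intact range. Tbx3, a T-box factor, had 15, 0, 1 and 25 counts in intact and none in separated embryos. Nanog was at 11.98 to 32.7 CPM in intact and 8.51 to 12.4 CPM in separated embryos. Cdx2 and Sox2, which mark outer and inner lineages at later stages, had no count in any of the 7 embryos.

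Stress genes were read because separation handles the cells. The 20 tested immediate early genes, which respond within minutes to handling or growth factors, had a median of 0.34. At an unadjusted p under 0.05, 1 was higher and 1 lower (10% in all, beside 5.98% of all genes). Ier2 had no count in the 4 intact embryos and 265, 0 and 38 counts in the separated ones. A single blastomere held 90.2% of the Ier2 counts in separated embryo 2 and 100% in separated embryo 4. Fos had 3 counts in separated embryo 4 and none in the other 6, and Atf3 had none. The 46 heat shock and chaperone genes had a median of -0.02. Hspa8, the constitutive HSP70, was at 240.8 to 527.8 CPM in intact and 148.0, 217.5 and 452.3 CPM in separated embryos, a log2 fold change of -0.44 (SE 0.48). Bag5, a co-chaperone of HSP70, had the smallest p of the list, at 6.11 to 23.8 CPM in intact and 41.9 to 54.3 CPM in separated embryos. The 28 genes of the unfolded protein, amino acid and oxidative stress responses had a median of -0.04. Canx, a chaperone of the endoplasmic reticulum, was at 91.8 to 153.6 CPM in intact and 270.2, 172.3 and 238.1 CPM in separated embryos, a log2 fold change of 0.83 (SE 0.34). Mthfd2, an enzyme of mitochondrial one-carbon metabolism, had the smallest p of that list, at 5.13 to 13.9 CPM in intact and 0.145 to 2.11 CPM in separated embryos. In batch 2 Mthfd2 was at 24.2 and 24.9 CPM and Bag5 at 92.99 and 100.2 CPM, each above its intact range. The 26 tested p53 targets had a median of -0.24, and none had an unadjusted p under 0.05. DESeq2 called 2 of the 26 higher and 0 lower, beside 0.836% and 1.53% of all genes. Gadd45b had the smallest p, at 44.03, 29.8, 64.1 and 25.15 CPM in intact and 0.0724, 19.6 and 17.2 CPM in separated embryos. The groups did not overlap for Gadd45b, with a log2 fold change of -1.73 (SE 1.15). The medians of the immediate early and p53 lists kept their sign under 17 alternatives, and those of the heat shock and unfolded protein lists did not. These alternatives rework the same embryos, so a kept sign does not measure the spread between embryos. The SD of the list level between embryos was 0.37 for immediate early genes and 0.17 for p53 targets. Cdkn1a (p21), which halts the cell cycle, was at 79.5, 34.6, 63.6 and 311.3 CPM in intact and 175.9, 128.5 and 32.2 CPM in separated embryos. Of 30 BCL2 family and caspase genes, Bcl2l2 had the smallest p, with 0, 16, 0 and 10 counts in intact and none in separated embryos.

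Early blastomeres cycle without growing, so cell cycle genes were read next. The 62 S phase genes had a median of 0.25. Orc6, a subunit of the origin recognition complex, was at 342.8 to 415.7 CPM in intact and 581.4 to 730.6 CPM in separated embryos, a log2 fold change of 0.81 (SE 0.27) with no overlap. The separated embryos of batch 2 had Orc6 at 161.1 and 266.3 CPM, below the intact range. The 59 genes of G2 and mitosis had a median of -0.06. Bub1b (BubR1), a kinase of the spindle checkpoint, had 15, 10, 63 and 81 counts in intact embryos and 1, 1 and 0 counts in separated ones. In batch 2 it was at 13.4 and 14.9 CPM, inside the intact range of 3.72 to 19.8 CPM. Haus6, a subunit of the augmin complex that branches spindle microtubules, was at 228.4 to 358.2 CPM in intact and 69.5, 227.2 and 149.1 CPM in separated embryos, a log2 fold change of -1.06 (SE 0.43). Haus6 was picked after its values were seen.

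In metabolism outside the mitochondrion, the lactate dehydrogenase gene Ldha had 23, 29, 43 and 33 counts in intact and 0, 1 and 0 in separated embryos. DESeq2 (adjusted p 0.0179) and limma voom (0.0206) called it lower, and edgeR did not. Batch 2 embryos had Ldha at 7.28 and 4.25 CPM, inside and below the intact range of 5.96 to 10.8 CPM. Over the 27 glycolysis genes tested the median was 0.14. Sc5d, an enzyme of cholesterol synthesis, had 0, 0, 111 and 28 counts in intact and none in separated embryos. The median of the 33 cholesterol and lipid genes was 0.21. The medians of the respiratory, proteasome and mitochondrially encoded lists kept their sign under 17 alternatives, which rework the same embryos. The SD of these lists' levels between embryos was 0.23, 0.14 and 0.30. The median of ribosomal proteins changed sign in 4 alternatives, of growth factor signals in 3, of maternal transcripts in 2 and of zygotic genes in 1. For 73 chromatin and DNA methylation genes the median was 0.01, with none at an unadjusted p under 0.05, and for 40 replication-dependent histone genes -0.06. Kdm6b, a demethylase of histone H3, had the smallest p of the chromatin list, at 0.733 to 4.09 CPM in intact and 5.40 to 11.9 CPM in separated embryos. The histone gene H4c1 had 0, 1, 0 and 4 counts in intact and 148, 22 and 25 counts in separated embryos.

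**Figure D4:**
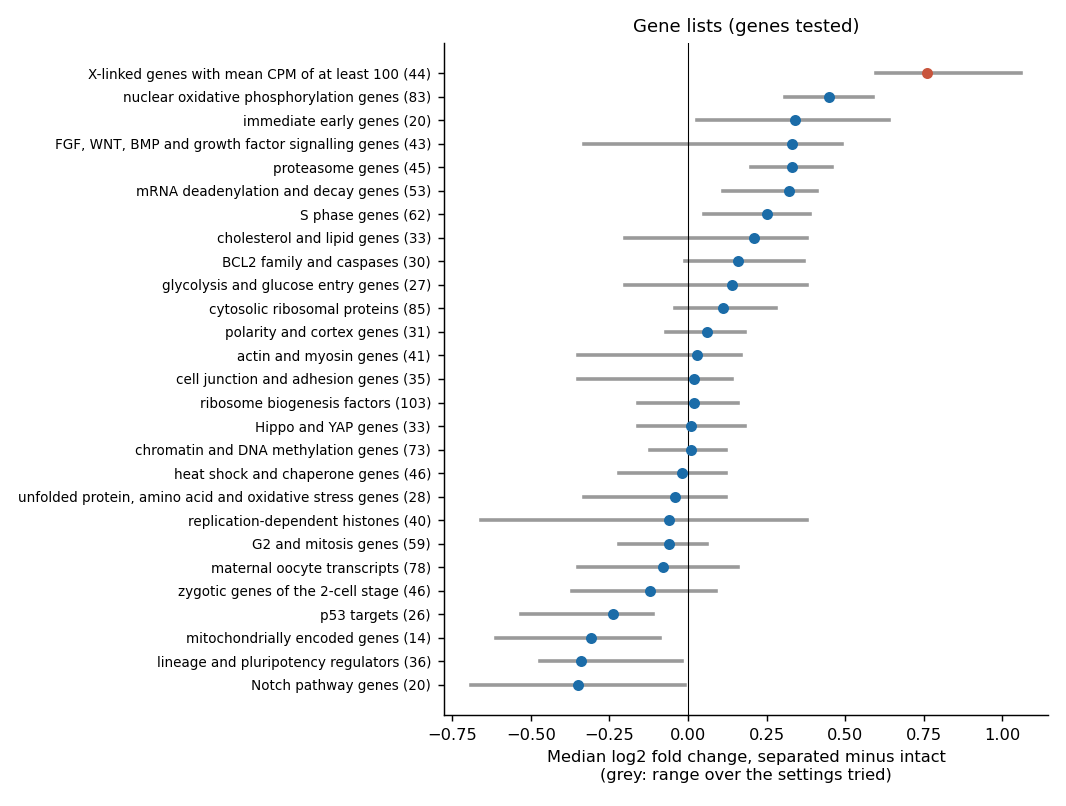
Median log2 fold change (separated minus intact) of each list with at least 10 tested members, the number tested in brackets. Points are the values as reported and grey lines the range over 17 alternative settings; most lines cross or come near 0, and the line of X-linked genes, added after the data were seen, runs from 0.60 to 1.06.

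X-linked genes were read against the autosomes, a comparison chosen after the values were seen. Among genes with a mean of at least 100 CPM, all 44 X-linked genes other than Xist had a log2 fold change above 0, with a median of 0.76. Of 1358 autosomal genes at that level 66.2% were above 0, and the medians of single autosomes ran from 0.05 to 0.26. In 13 of the 44 every separated embryo lay above every intact one, as in 131 of the 1358 autosomal genes, and 9 (20.5%) were higher at an unadjusted p under 0.05, against 3.98% of the autosomal genes. None of the 44 had an adjusted p under 0.05. At a minimum of 10 CPM, 164 of 194 X-linked genes (84.5%) were above 0 with a median of 0.66, beside 57.5% of autosomal genes with a median of 0.12. Hprt, a purine salvage enzyme on the X chromosome (52988137 to 53021659), was at 2398, 1372, 3058 and 1810 CPM in intact embryos 1, 3, 4 and 5. In separated embryos 2, 3 and 4 it was at 6756, 4761 and 4552 CPM, a log2 fold change of 1.31 (SE 0.43). Without a filter on low counts Hprt was called at an adjusted p of 3.23e-05. Eif1ax, a translation initiation factor, was at 98.2 to 147.6 CPM in intact and 487.3, 220.2 and 290.9 CPM in separated embryos, a log2 fold change of 1.39 (SE 0.51). Vbp1, a subunit of the prefoldin chaperone, was at 124.8, 106.4, 206.9 and 94.0 CPM in intact and 366.5, 409.2 and 175.2 CPM in separated embryos, a log2 fold change of 1.25 (SE 0.33). The low separated value of Vbp1 was that of embryo 4 and the high intact value that of embryo 4. Prdx4, an X-linked peroxidase of the endoplasmic reticulum, was not among the 44 because its mean was under 100 CPM, and was picked for its small p. It was at 15.3, 7.44, 30.6 and 6.59 CPM in intact and 135.4, 60.3 and 67.4 CPM in separated embryos, a log2 fold change of 2.55 (SE 0.62). Scml2, an X-linked gene picked the same way, had a log2 fold change of -3.58 and is described below.

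Y-linked RNA and Xist moved with the same embryos. Summed over 7 Y-linked genes, intact embryos 1, 3 and 5 had 104.3, 59.5 and 40.5 CPM and intact embryo 4 had 0.954. Separated embryo 4 had 55.3, and separated embryos 2 and 3 had 0.443 and 0.772. Y-linked genes were thus abundant in 3 of 4 intact and 1 of 3 separated embryos. Xist, the RNA that silences an X chromosome in females, was at 34.6 and 52.8 CPM in separated embryos 2 and 3 and at 5.96 in intact embryo 4. It had 0, 0 and 1 counts in intact embryos 1, 3 and 5 and none in separated embryo 4. The level of the 44 X-linked genes relative to the autosomal genes, in log2 and centred on the 7 embryos, was -0.34, -0.49 and -0.54 in intact embryos 1, 3 and 5. It was 0.34 in intact embryo 4, 0.61 and 0.43 in separated embryos 2 and 3, and 0.03 in separated embryo 4. The batch 2 embryos, with 0.145 and 0.0691 CPM of Y-linked RNA, stood at 0.68 and 0.47. Whether the balance of embryos with and without Y-linked RNA accounts for the X-linked difference was not tested. The Y-linked genes have X-linked relatives, so a few of their reads can be assigned to the wrong copy.

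**Figure D5:**
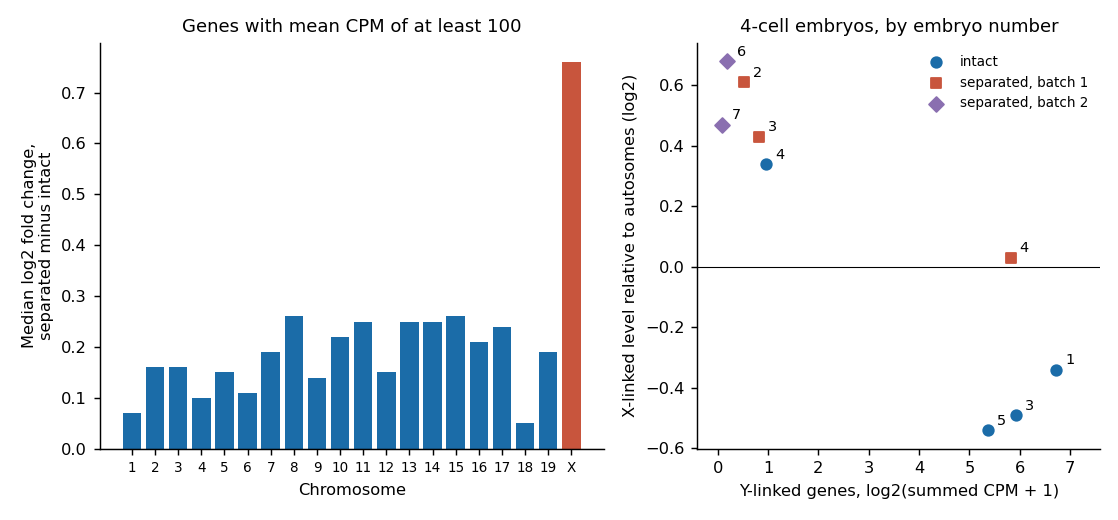
Left, median log2 fold change (separated minus intact) of genes with a mean of at least 100 CPM on each autosome and on the X chromosome, with bars from 0. Right, level of 44 X-linked genes relative to autosomal genes against the summed Y-linked level of each 4-cell embryo, numbered as in the labels; the embryos with Y-linked levels under 1 CPM lie between 0.34 and 0.68, and the others between -0.54 and 0.03.

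Genes with the smallest p among those with a mean of at least 10 CPM and a symbol that is not a predicted or clone name were also read, chosen after their values were seen. Bola1, a mitochondrial protein of iron-sulfur cluster handling, was at 23.3, 13.8, 7.34 and 15.9 CPM in intact and 55.7, 58.2 and 85.2 CPM in separated embryos, a log2 fold change of 2.14 (SE 0.52). DESeq2 called Bola1 with an adjusted p of 0.00125, and both batch 2 embryos, at 45.9 and 49.5 CPM, also lay above the intact range. Dynlrb1, a light chain of dynein, was at 161.2 to 260.4 CPM in intact and 498.5, 702.1 and 444.4 CPM in separated embryos, a log2 fold change of 1.45 (SE 0.41). Ypel5 was at 639.2 to 1142 CPM in intact and 1442 to 1871 CPM in separated embryos, a log2 fold change of 1.0 (SE 0.30). Selenos, a selenoprotein of the endoplasmic reticulum, was at 306.4 to 469.1 CPM in intact and 715.9 to 929.2 CPM in separated embryos, a log2 fold change of 1.09 (SE 0.33). Kalrn was at 4.14 to 11.98 CPM in intact and at 42.5, 45.4 and 42.2 CPM in separated embryos, a log2 fold change of 2.26 (SE 0.65). In batch 2 Kalrn, at 51.95 and 40.3 CPM, also lay above the intact range. Dynlrb1, at 131.1 and 120.7 CPM, and Ypel5, at 282.5 and 529.1 CPM, lay below it there, and Selenos was at 410.7 and 576.3 CPM. The groups did not overlap for any of these 5 genes, and the adjusted p of each was 0.801 in edgeR. Ggps1, a geranylgeranyl diphosphate synthase, did overlap, at 17.1 to 236.2 CPM in intact and 121.9 to 1066 CPM in separated embryos, a log2 fold change of 2.64 (SE 0.75) that was called without a filter on low counts, at an adjusted p of 0.00245. Pla2g4b, a phospholipase gene, was at 0.518, 2.23, 1.47 and 1.95 CPM in intact and 332.4, 39.3 and 23.4 CPM in separated embryos, a log2 fold change of 6.42 (SE 1.67). DESeq2 called it at an adjusted p of 0.000599, and in batch 2 it was at 0 and 0.0186 CPM. A single blastomere held 99.7%, 49.2% and 58.1% of the Pla2g4b counts in separated embryos 2, 3 and 4. Over the 12 blastomeres the median was 3.16 CPM and the highest value 968.6 CPM. Tex12, of the meiotic synaptonemal complex, was at 0.978 to 5.13 CPM in intact and 42.3, 5.76 and 27.6 CPM in separated embryos, a log2 fold change of 3.27 (SE 0.86). Its top blastomere held 66.8%, 94.4% and 72.9% of the counts in separated embryos 2, 3 and 4.

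In the other direction, Snhg3, a host gene of small nucleolar RNAs on chromosome 4 (132348014 to 132353686), was at 126.4, 107.5, 120.3 and 148.2 CPM in intact embryos. In separated embryos it was at 65.0, 52.1 and 38.7 CPM, a log2 fold change of -1.27 (SE 0.35), with an adjusted p of 0.801 in edgeR and 0.00193 in DESeq2. Snhg3 overlaps Rcc1 and the snoRNAs it hosts, so reads may be shared. Scml2, a Polycomb-related protein encoded on the X chromosome, was not among the 44 because its mean was under 100 CPM. It was at 29.8, 31.3, 23.2 and 28.1 CPM in intact and 0.289, 6.46 and 0.231 CPM in separated embryos, a log2 fold change of -3.58 (SE 1.10). Another Polycomb gene, Pcgf6, was at 77.4 to 120.3 CPM in intact and 52.2, 67.7 and 29.1 CPM in separated embryos, a log2 fold change of -1.01 (SE 0.40). Sfmbt1 was at 20.8 to 35.7 CPM in intact and 0.362, 10.3 and 2.78 CPM in separated embryos, a log2 fold change of -2.55 (SE 0.74). Slc9b1, a sodium-proton exchanger, had 57, 55, 51 and 101 counts in intact and 3, 3 and 0 in separated embryos, a log2 fold change of -6.99 (SE 1.96). DESeq2 called Scml2, Pcgf6, Sfmbt1 and Slc9b1 lower, with adjusted p-values of 0.00499, 0.0478, 0.00484 and 6.27e-05. In batch 2 Pcgf6, at 113.1 and 135.8 CPM, was not below the intact range, Sfmbt1 was at 25.8 and 15.98 CPM, and Scml2, Slc9b1 and Snhg3 lay below it in both embryos. Zfp677, Atp6v1h and Polq were picked by the same rule, and of these only the first 2 were called by DESeq2. Among genes named from the lists, DESeq2 also called Bcl2l2, Slc9a3r1, Tbx3, Tcstv1, Bub1b and Sc5d, each of which limma voom did not call. The clone gene CT010467.1, which holds ribosomal RNA sequence, took 1.40% to 1.87% of counts in intact and 0.949% to 1.19% in separated embryos, a log2 fold change of -0.51 (SE 0.14). The groups did not overlap for CT010467.1, and DESeq2 called it at an adjusted p of 0.00979. Without a filter on low counts edgeR called CT010467.1 at an adjusted p of 0.0144. In batch 2 it was at 85380 and 61070 CPM, above the intact range of 14330 to 17110 CPM.

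Some genes were detected in 1 group alone, at totals that differ between the groups. Of 29372 genes with a count in any library, 23 had counts in all 4 intact and in no separated embryo, 22 of them tested. The one with the highest summed count was Calm5, a calmodulin-like gene, with 47, 17, 25 and 59 counts. Rundc1 had 1, 34, 27 and 50 counts, and Swap70, a signalling adaptor, had 31, 36, 21 and 4. Calm5, Rundc1 and Swap70 had no count in any of the 12 blastomeres although the separated embryos were sequenced more deeply. Both batch 2 embryos had counts for 21 of the 23 genes, with Calm5 at 2.43 and 2.53 CPM there, below the intact range of 6.11 to 14.4 CPM. The reverse, counts in all 3 separated and in no intact embryo, was found for 187 of the 29372 genes. Only 77 of the 187 passed the filter and were tested, and the median summed count over the 187 was 14. Of these, Mipep, a peptidase of mitochondrial import, had 191, 222 and 65 counts. In embryo 2 the Mipep counts all came from blastomere 3, and in embryo 3 they also all came from 1 blastomere. Zmynd15 had 74, 137 and 40 counts, and 1 and 4 in the deeper batch 2 embryos. In each separated embryo of batch 1 a single blastomere held all Zmynd15 counts. DESeq2 called Calm5, Rundc1, Swap70, Mipep and Zmynd15, and limma voom called Calm5 and Swap70.

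The same contrast at the 2-cell stage uses other embryos, 5 intact and 5 separated, and so can be tested against the 4-cell contrast. No gene differed between the stages in its fold change of separated minus intact embryos at an adjusted p under 0.05 in edgeR's interaction test (0%). An unadjusted p under 0.05 was found for 1228 genes (8.7%), and DESeq2 called 466 of the same 14119 genes. The lowest adjusted p was again that of Fbxw18, at 0.0706, with a log2 fold change of 0.72 (SE 0.57) at the 2-cell stage. The difference of the log2 fold changes was -6.40 (SE 1.03). Snhg3 pointed opposite ways at the stages. It was at 109.2 to 151.9 CPM in intact and 181.2 to 358.8 CPM in separated 2-cell embryos, a log2 fold change of 1.06 (SE 0.29), and the difference was -2.33 (SE 0.46, adjusted p = 0.227). The 44 X-linked genes had a median of 0.10 at the 2-cell stage. The log2 fold changes of Ndufb6, Psmb2 and Klf5 there were 0.11, 0.08 and -0.13, with interaction adjusted p-values of 0.538, 0.696 and 0.482. For these 3 genes the test showed neither a difference between the stages nor its absence.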

How the data were processed

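RNA of whole embryos and of single blastomeres was measured in 39 libraries. The authors deposited 1 table of RSEM expected counts per gene. Per the submitters' processing notes the tools were Trim Galore 0.6.10, STAR 2.7.3a and RSEM 1.2.28, with GRCm38; the annotation and strand setting are not given in the sources used here. Expected counts were rounded to whole numbers and summed over the 4 blastomeres of an embryo.

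Genes were tested with edgeR 4.0.16 (R 4.3.3): TMM scaling, filterByExpr, quasi-likelihood F-test and Benjamini-Hochberg adjustment over 14119 genes. All 19 embryos entered 1 fit with group and batch as terms, and the 3 separated and 4 intact 4-cell embryos of batch 1 were contrasted. The threshold was an adjusted p of 0.05. Standard errors were derived from the log2 fold change and the F statistic, with 14 residual degrees of freedom. DESeq2 1.42.0, limma voom 3.58.1, other filters and scalings, thinning, a replicate block and leaving out each embryo served as alternatives. edgeR was tested on simulated counts first. Library measures were compared with exact permutation tests (scipy 1.17.1). Gene coordinates come from GENCODE annotation of GRCm38.

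The members and lists were chosen with earlier results of these data known. The naming rule asked for called genes by fold change and p. Since none was called, it left the member of smallest p of each list, and not every such member is named here. Other genes are described as chosen after their values were seen or as known members of a list. The members named beside a list's smallest-p gene were likewise chosen with their values in view.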

Additional observations from a re-analysis of the deposited data

How the results depend on the processing

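Under edgeR the count of called genes stayed at 0 with DESeq2 size factors, the 7 embryos alone, batch 2 left out, embryos or sisters thinned, and the replicate block. It was 11 (6 higher, 5 lower) with no count filter (Fbxw18, Hprt, Ggps1, mt-Cytb, Tcstv1 and CT010467.1 among them) and 1 (0 higher, 1 lower, Fbxw18) with CPM of at least 10 in 3 embryos. DESeq2 called 334 (118 higher, 216 lower) and limma voom 13 (0 higher, 13 lower), and 8 genes were called by both; the cause was not tested. Leaving out 1 embryo gave 0 to 1 calls: Fbxw18 without intact embryo 3 and Accsl without separated embryo 4. Interaction calls were 38 with no filter, 1 with the CPM filter, 466 in DESeq2, 2 in limma voom, 0 to 1 with 1 embryo left out and 0 otherwise; the 7 embryos alone cannot give this test. Of 678 recomputed fold changes of 40 named genes, 654 kept direction and side of the threshold, 24 passed it and 0 changed direction. Hprt could not be fitted by limma voom. The 40 are not all the genes named here, and genes were named with their values in view. A kept direction in them is therefore no independent support. The separated-minus-intact difference in genes with a count was 1142 at a minimum of 5 counts and 1651 to 2155 with 1 embryo left out. The median over all genes ran from -0.17 in limma voom, over -0.04 with DESeq2 size factors, to 0.13 with the replicate block and 0.17 with batch 2 left out, and the X-linked median, recomputed as an alternative added after seeing the data, ran from 0.60 to 1.06, the latter without intact embryo 4. With the replicate block 0 genes were called in either direction and 0 for the interaction. The numbers shared by intact and separated embryos gave no sign of pairing: same-numbered embryos 3 and 4 had deviations correlated at -0.01 and -0.07.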
